A study of Mus musculus with 16 samples.

Results

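Netrin-Gs and the netrin-G ligands are neuronal surface proteins that join axons to dendrites at excitatory synapses, and the transcripts of 5 such genes were followed in the hippocampus of THC-treated and vehicle-treated mice. The genes were the netrin-Gs Ntng1 and Ntng2 and the leucine-rich repeat genes Lrrc4, Lrrc4b and Lrrc4c. Among the 19057 genes named on the array, 4 of the 5 had a probe, and Lrrc4b, for which no probe was annotated, was not analysed here. All probes annotated with one of the symbols were taken, 11 of 45281. Ntng1 had been picked because its values after THC went opposite ways at the 2 ages. Its values are therefore given as a description, with no test, and the other genes were taken as its relatives and partners.

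Netrin-G1 and netrin-G2 are held in the axonal membrane by a lipid anchor and, unlike the classical netrins, do not act as secreted guidance cues. Netrin-G1 binds the protein of Lrrc4c (NGL-1) and netrin-G2 binds that of Lrrc4 (NGL-2), both of which sit on the postsynaptic side and bind scaffold proteins of the PSD-95 family. The protein of Lrrc4b (NGL-3) pairs with receptor phosphatases of the LAR family instead. In the hippocampus, netrin-G1 is known on axons that arrive from the entorhinal cortex and netrin-G2 on the Schaffer collaterals, and Ntng1 is also strongly transcribed in the thalamus.

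RNA came from hippocampi of male C57BL/6J mice, given THC (Δ9-tetrahydrocannabinol, the cannabinoid behind the psychoactive effect of cannabis) or vehicle, a mixture of ethanol, cremophor and saline. An implanted osmotic minipump delivered 3 mg/kg of THC a day over 28 days. The 4 groups were THC_Old (THC, 12 months of age, 5 arrays), control_Old (vehicle, 12 months, 5 arrays), THC_Young (THC, 2 months, 3 arrays) and control_Young (vehicle, 2 months, 3 arrays). All mice had a behavioural test between days 33 and 41 and were killed on day 46, so that the drug had been stopped before the tissue was taken. The submitters describe 3 to 5 mice for each group, but nothing ties an array to a mouse, so the p-values measure only the spread between these samples, which may be technical.

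Each array gave a log2 intensity per probe, and between 41.1% and 45.9% of the probes were detected per array, meaning a detection p under 0.05. The values below are log2 intensities after background correction and quantile normalization, a scale on which a difference of 1 is a doubling. Levels of different probes cannot be set against each other, since each probe binds with its own strength. The 16 arrays lay on 4 slides, of which slide 3 held 4 THC arrays and no vehicle array. The 4 arrays of slide 1 lay apart from the rest on the first principal component, at −50.2 to −33.7 against −0.87 to 31.3. Of the markers for the labelled tissue, 4 of 6 dentate granule cell genes and 9 of 10 pyramidal cell genes were measured, while the probes for the granule cell gene Tdo2 and the pyramidal cell gene Neurod6 were detected on no array. Choroid plexus markers averaged 7.98 and 8.34 on THC_Old replicates 1 and 5 and 9.06 on control_Young replicate 2, against 4.94 to 6.96 on the other 13 arrays.

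Of the 11 probes, 8 were tested because they were detected on at least 3 arrays. Ntng1 had 4 tested probes, ILMN_2645263, ILMN_2829625, ILMN_2457731 and ILMN_1217847, the first 3 of them detected on all 16 arrays and the last on 12. Ntng2 had 1 tested probe, ILMN_1239814, detected on all 16 arrays. Lrrc4 had 1, ILMN_2741194, detected on 11 arrays, and Lrrc4c had 2, ILMN_1247141 and ILMN_2826687, detected on 12 and 9 arrays. The 3 probes left out were close to background, with Ntng1 ILMN_1237812 and Ntng2 ILMN_2701486 each detected on 1 array and Ntng2 ILMN_2701485 on 0.

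Ntng1 was lower after THC in the older mice on the probe with the highest mean, ILMN_2645263. THC_Old arrays had 9.94, 10.01, 9.93, 9.45 and 9.69, against 10.33, 10.30, 10.24, 10.46 and 10.43 on control_Old arrays. Every THC array lay below every vehicle array at this age, and the vehicle arrays were the more tightly grouped. The means were 9.80 ± 0.23 after THC and 10.35 ± 0.09 after vehicle (SD, n = 5 each), a log2 difference of −0.55 ± 0.14 (SE) or 0.684-fold. In bulk tissue, fewer cells that make the transcript and less transcript per cell cannot be told apart.

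In the young mice the same probe was higher after THC. THC_Young arrays had 10.38, 9.98 and 10.32, against 9.59, 9.23 and 9.82 on control_Young arrays. The groups again did not overlap. Young THC mice averaged 10.22 ± 0.22 and young vehicle mice 9.55 ± 0.30 (SD, n = 3 each), a difference of 0.68 ± 0.18 or 1.60-fold. The response at 12 months minus that at 2 months came to −1.23 ± 0.23, the 154th of all 22625 by size. The gene was chosen for it, and nothing is read from this rank.

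By mean level on this probe the 4 groups stood in the order control_Old at 10.35, THC_Young at 10.22, THC_Old at 9.80 and control_Young at 9.55, and each neighbouring pair in that order overlapped. Vehicle mice differed by 0.81 ± 0.16 between 12 and 2 months, with every old array above every young one, and THC mice by −0.42 ± 0.16, with overlapping values. THC_Old arrays were 0.26 ± 0.16 above control_Young arrays and overlapped them, and on slide 4 the difference was −0.13. Before normalization, the scanner values of this probe overlapped at 12 months, at 9.63 to 10.44 in THC_Old against 9.96 to 10.78 in control_Old, but not at 2 months, at 10.16 to 10.73 in THC_Young against 9.23 to 10.07 in control_Young.

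**Figure D1:**
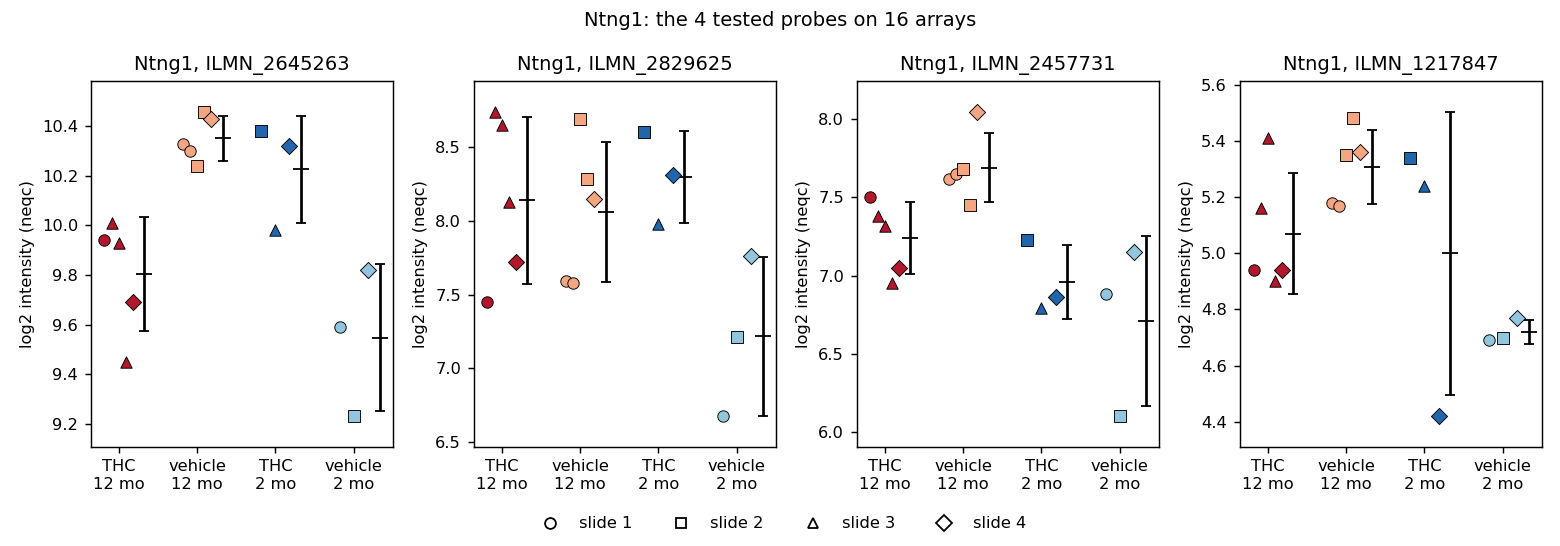
Log2 intensity (after background correction and quantile normalization) of the 4 tested Ntng1 probes in the 4 groups. Each point is 1 array, its shape gives the slide, and the bar beside the points is the mean ± SD. On ILMN_2645263 the THC arrays lie below all vehicle arrays at 12 months and above all vehicle arrays at 2 months, while ILMN_2829625 overlaps between THC and vehicle at 12 months.

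The other 3 Ntng1 probes, which were read for the same gene on the same arrays and are not independent evidence, did not all run with ILMN_2645263. ILMN_2829625 showed the higher values after THC at 2 months but no lower ones at 12 months. It had 8.60, 7.98 and 8.31 on THC_Young arrays, against 6.68, 7.21 and 7.76 on control_Young arrays, a difference of 1.08 ± 0.36. On THC_Old arrays it had 7.45, 8.74, 8.65, 8.13 and 7.72, against 7.59, 7.58, 8.69, 8.28 and 8.15 on control_Old arrays, a difference of 0.08 ± 0.28. The young groups did not overlap and the old groups did.

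ILMN_2457731 differed with age in vehicle mice. It had 7.62, 7.65, 7.68, 7.45 and 8.05 on control_Old arrays, against 6.88, 6.10 and 7.15 on control_Young arrays, which is 0.98 ± 0.21 higher at 12 months. The 2 vehicle groups did not overlap. After THC it had 7.50, 7.38, 7.32, 6.95 and 7.05 at 12 months, −0.45 ± 0.18 from vehicle with 1 THC array above the lowest vehicle array, and 7.23, 6.79 and 6.86 at 2 months, 0.25 ± 0.24 from vehicle.

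ILMN_1217847 was dim and was detected on none of the 3 control_Young arrays. For such a group only a bound is given, the mean of the brighter group over the mean of, on each array, the higher of the probe's own value and the lowest value of any detected probe. By that bound the probe was at least 1.37-fold higher in control_Old than in control_Young arrays, with measured means of 5.31 and 4.72. THC_Young arrays had 5.34, 5.24 and 4.42, the first 2 of them detected, against 4.69, 4.70 and 4.77 on control_Young arrays. The third THC array lay below all 3 vehicle arrays, so the young groups overlapped and no fold is given. At 12 months the means were 5.07 ± 0.22 after THC and 5.31 ± 0.13 after vehicle (SD, n = 5 each), with overlapping groups.

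Over the 4 tested Ntng1 probes, 1 lay without overlap below vehicle after THC at 12 months, 2 lay without overlap above vehicle after THC at 2 months, and 3 were without overlap higher with age in vehicle mice. Of all 22625 tested probes, 0.433%, 5.51% and 1.44% did so in the same 3 comparisons and directions. Among the 3 Ntng1 probes higher with age was ILMN_1217847, which no control_Young array detected, so its lack of overlap was with values at background. For ILMN_2645263 both THC patterns held at once, which 0.0221% of all probes showed. Ntng1 was chosen on these arrays, so the counts are a description. Across the 16 arrays the values of ILMN_2645263 correlated with those of ILMN_2457731, ILMN_1217847 and ILMN_2829625 at Pearson r = 0.74, 0.55 and 0.50, and ILMN_2829625 and ILMN_2457731 at 0.36. The sources used here do not say which transcript forms each probe binds.

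The slides held different mixes of groups, so the Ntng1 values were also compared within slides. Slide 4 carried 1 array of each group, and ILMN_2645263 read 9.69 after THC and 10.43 after vehicle at 12 months, and 10.32 after THC and 9.82 after vehicle at 2 months. On that slide the difference of both responses was −1.24. Slide 1 gave −0.38 for THC at 12 months (1 THC and 2 vehicle arrays) and slide 2 gave 1.15 for THC at 2 months (1 array each). The difference with age in vehicle mice was 0.72, 1.12 and 0.61 on slides 1, 2 and 4, and that in THC mice was −0.18 and −0.63 on slides 3 and 4.

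**Figure D2:**
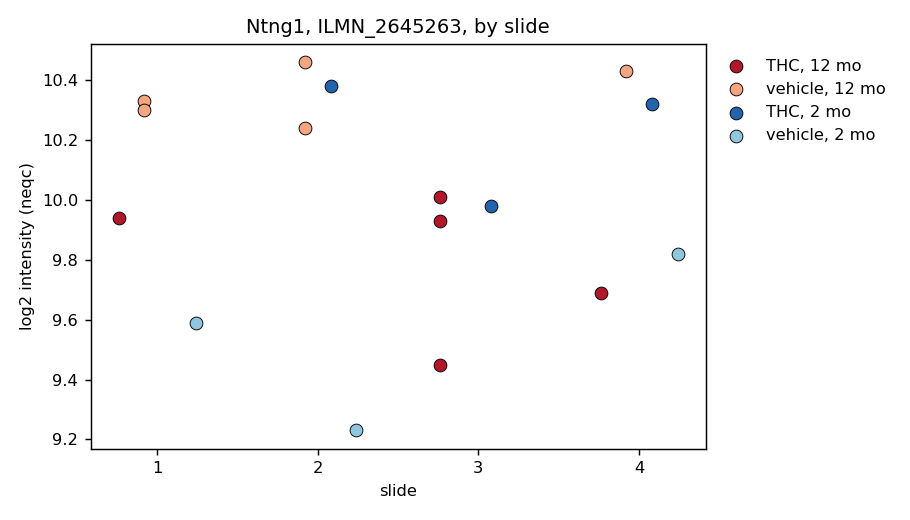
Log2 intensity of Ntng1 probe ILMN_2645263 on each of the 4 slides, with 1 point per array and the group as colour. Within slides 1 and 4 the old THC array lies below the old vehicle arrays, and within slides 2 and 4 the young THC array lies above the young vehicle array.

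With the slide as a fixed block ILMN_2645263 differed between THC and vehicle by −0.49 in old and 0.72 in young mice, and between old and young vehicle mice by 0.82. Without the 4 arrays of slide 1 these differences were −0.61, 0.70 and 0.85. For ILMN_2829625 the difference at 2 months was 0.77 with the block and 0.81 without slide 1, and 1.39 and 0.55 within slides 2 and 4. At 12 months the difference was −0.12 with the block and −0.06 without slide 1, and −0.13 and −0.42 within slides 1 and 4, so its sign was not settled. For ILMN_2457731 the 2-month difference was 1.12 within slide 2 and −0.30 within slide 4, and −0.058 without control_Young replicate 2, so its sign was not settled either.

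Markers of the thalamus differed between the groups in the same directions as Ntng1, given here as counts with no test. Of 18 thalamus markers 14 were tested, among them the vesicular glutamate transporter gene Slc17a6, Plekhg1 was detected on 1 array, and the probes for Synpo2, Nexn and Ptpn3 were detected on none. After THC at 12 months 11 of the 14 were lower, with a median of −0.26, and their mean per array ran from 7.31 to 8.51 on THC_Old and from 7.52 to 8.30 on control_Old arrays. At 2 months 13 of 14 were higher after THC, with a median of 0.86, and the mean ran from 7.23 to 9.00 on THC_Young and from 6.97 to 7.57 on control_Young arrays. All 14 were higher with age in vehicle mice, with a median of 0.60.

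With the thalamus mean as a covariate ILMN_2645263 differed between THC and vehicle by −0.52 in old and 0.56 in young mice, and between old and young vehicle mice by 0.72. Across the 16 arrays it correlated with the thalamus mean at Pearson r = 0.556 and Spearman rho = 0.564, a description only, since the arrays share slides, groups and normalization. Without the 2 arrays farthest from the median r was 0.610, with slide means removed it was 0.558, and with group means removed it was 0.307. Each slide held 4 arrays, too few for a correlation of its own.

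**Figure D3:**
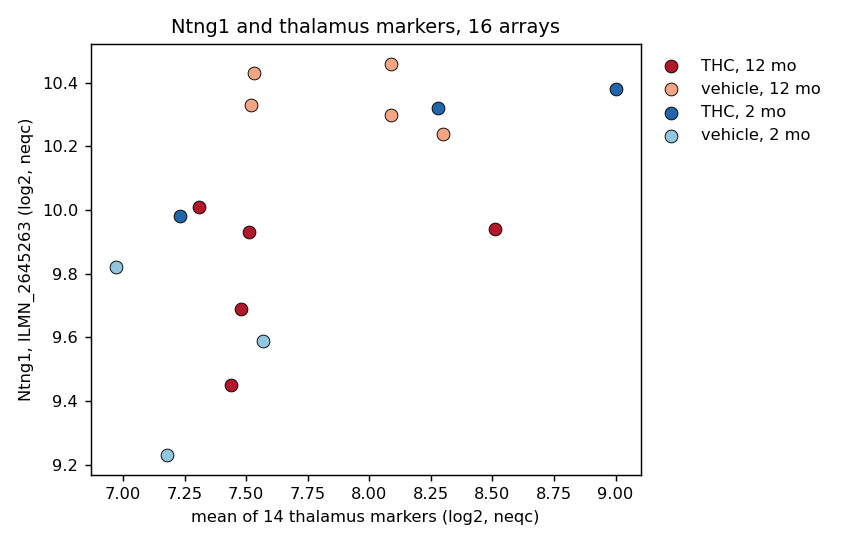
Ntng1 probe ILMN_2645263 against the mean of 14 thalamus markers, both as log2 intensity, with 1 point per array and the group as colour. Arrays with a higher thalamus mean tend to have a higher Ntng1 value (r = 0.556, n = 16), and the highest thalamus mean, 9.00, is that of THC_Young replicate 1.

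Other marker lists differed between the groups too. Meningeal and fibroblast markers were lower for 10 of 10 genes after THC at 12 months (median −0.55), higher for 6 of 10 after THC at 2 months (0.11) and higher for 10 of 10 with age in vehicle mice (0.87). Their mean per array ran from 7.04 to 7.73 in THC_Old and from 7.75 to 8.32 in control_Old arrays, without overlap, and from 6.97 to 7.94 in THC_Young and from 7.01 to 7.58 in control_Young arrays. It correlated with ILMN_2645263 at r = 0.557 and rho = 0.566, with r = 0.686 without the 2 farthest arrays and 0.150 with group means removed. Pyramidal cell markers were higher for 7 of 9 genes after THC at 12 months (median 0.38), and lower for 7 of 9 both after THC at 2 months (−0.18) and with age in vehicle mice (−0.50). Their mean per array ran from 8.44 to 8.74 in THC_Old against 8.19 to 8.81 in control_Old arrays, and from 8.52 to 8.71 in THC_Young against 8.83 to 8.92 in control_Young arrays. It correlated with ILMN_2645263 at r = −0.622 and rho = −0.652, with r = −0.542 without the 2 farthest arrays and −0.217 with group means removed.

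Choroid plexus markers went the opposite way to Ntng1, higher for 10 of 10 genes after THC at 12 months (median 0.77), and lower for 10 of 10 both after THC at 2 months (−1.05) and with age in vehicle mice (−1.16). Their mean per array ran from 4.94 to 8.34 in THC_Old against 4.95 to 6.96 in control_Old arrays. At 2 months it ran from 5.34 to 6.34 in THC_Young against 5.64 to 9.06 in control_Young arrays. The 3 arrays with high values were THC_Old replicates 1 and 5 and control_Young replicate 2. They form a cluster of their own, so no pooled correlation is given. Striatum markers were higher for 7 of 7 genes after THC at 12 months (median 0.54), and lower for 6 of 7 after THC at 2 months (−0.32) and for 7 of 7 with age in vehicle mice (−0.29). The same 3 arrays had the highest striatum means, at 8.02, 7.56 and 7.76, and the others lay at 6.68 to 7.03. Of 12 markers of neocortex and entorhinal cortex, 11 were lower after THC at 12 months (median −0.29) and 9 higher at 2 months (0.17), and 8 were higher with age in vehicle mice (0.08). Their mean per array ran from 7.87 to 8.58 in THC_Old against 7.84 to 8.86 in control_Old arrays, and from 8.29 to 8.62 in THC_Young against 8.06 to 8.65 in control_Young arrays.

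The other 4 lists did not all follow Ntng1. Of 8 midbrain dopamine neuron markers 3 were tested, and all 3 were higher after THC at both ages, with a median of 0.31 at 12 months and 1.12 at 2 months. Their mean per array ran from 5.39 to 6.93 in THC_Old against 5.29 to 5.86 in control_Old arrays, and from 5.27 to 8.71 in THC_Young against 5.44 to 5.62 in control_Young arrays. The 8.71 was that of THC_Young replicate 1, which also had the highest thalamus mean. Th, which encodes the rate-limiting enzyme of dopamine synthesis, was detected on 2 arrays, and Foxa1, Foxa2 and Pitx3 on 0.

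Myelin markers were higher for 7 of 7 genes after THC at 12 months (median 0.48) and for 5 of 7 at 2 months (0.074), and lower for 7 of 7 with age in vehicle mice (−0.40). Their mean ran from 10.7 to 11.8 in THC_Old against 10.4 to 11.1 in control_Old arrays, and from 10.9 to 11.9 in THC_Young against 10.9 to 11.5 in control_Young arrays. It correlated with ILMN_2645263 at r = −0.383 and rho = −0.362, with r = −0.722 without the 2 farthest arrays and −0.084 with group means removed. Dentate granule cell markers were higher for 4 of 4 genes after THC at both ages (median 0.59 at 12 months and 0.85 at 2 months) and for 2 of 4 with age in vehicle mice. Their mean per array ran from 7.52 to 8.64 in THC_Old and from 7.69 to 8.43 in THC_Young arrays. Control_Old replicate 5 at 6.33 and control_Young replicate 2 at 6.02 were the lowest, and the other vehicle arrays lay at 7.22 to 8.13, overlapping the THC arrays. Inhibitory neuron markers were higher for 5 of 7 genes after THC at 12 months (0.13), for 6 of 7 at 2 months (0.070) and for 5 of 7 with age (0.060). With ILMN_2645263 the cortical, midbrain, dentate and inhibitory means correlated at r = 0.315, 0.215, 0.168 and 0.071. Without the 2 farthest arrays these were 0.389, 0.186, −0.097 and 0.098, and with group means removed 0.015, 0.285, 0.340 and 0.159. No pooled correlation is given for the striatum mean, since the arrays with high choroid plexus values lay apart on it too. The part of these lists and of the thalamus, meningeal, pyramidal cell, choroid plexus, striatum and cortical markers in the Ntng1 values was not tested. The fit with the thalamus mean as a covariate is no such test, since that mean itself differed between the groups.

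Ntng2, the closest relative of Ntng1, did not pass the test in any comparison. ILMN_1239814 had 6.98, 7.50, 7.74, 7.09 and 7.57 on THC_Old arrays, against 7.96, 7.97, 7.54, 7.33 and 7.30 on control_Old arrays. The groups overlapped, with the 2 lowest arrays both from THC mice and the 2 highest both from vehicle mice. The difference was −0.25 (95% interval −0.67 to 0.17, limma adjusted p = 0.916), and 0.082 without slide 1. Within slides 1 and 4 it was −0.99 and 0.27, so its sign was not settled. At 2 months it had 7.14, 7.35 and 7.75 on THC_Young arrays, against 7.38, 6.94 and 7.76 on control_Young arrays, a difference of 0.05 (95% interval −0.49 to 0.60, limma adjusted p = 0.971). Vehicle mice of 12 months averaged 7.62 ± 0.33 and those of 2 months 7.36 ± 0.41 (SD, n = 5 and 3), 0.26 apart (limma adjusted p = 1.00).

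Lrrc4, which encodes the partner of netrin-G2, was near the detection limit. ILMN_2741194 had 4.67, 5.15, 4.74, 5.51 and 5.25 on THC_Old arrays, 3 of them detected, against 4.80, 4.82, 4.80, 5.06 and 4.85 on control_Old arrays, also with 3 detected. The THC arrays were the more widely spread, on both sides of the vehicle arrays, and differed by 0.20 (95% interval −0.17 to 0.56, limma adjusted p = 0.916). At 2 months it had 4.87, 5.36 and 5.11 on THC_Young arrays, against 4.44, 5.23 and 4.96 on control_Young arrays, a difference of 0.23 (95% interval −0.24 to 0.71, limma adjusted p = 0.849). The difference with age in vehicle mice was −0.01 (limma adjusted p = 1.00).

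Lrrc4c, which encodes the partner of netrin-G1, was dim as well. ILMN_1247141 had 4.43, 5.85, 5.55, 5.61 and 5.19 on THC_Old arrays, against 4.78, 4.43, 5.21, 5.20 and 5.64 on control_Old arrays. The lowest array of either group, near 4.43, was on slide 1. The difference was 0.27 (95% interval −0.28 to 0.82, limma adjusted p = 0.916), but −0.26 with the slide as a block. At 2 months the groups had 5.29, 5.73 and 5.05 after THC and 5.39, 4.72 and 5.36 after vehicle, 0.20 apart (limma adjusted p = 0.914), and −0.16 with the block.

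The second Lrrc4c probe, ILMN_2826687, averaged 5.06 ± 0.40 in THC_Old and 4.86 ± 0.10 in control_Old arrays (SD, n = 5 each), 0.20 apart (limma adjusted p = 0.918). At 2 months it averaged 4.99 ± 0.31 after THC and 4.95 ± 0.49 after vehicle (SD, n = 3 each), 0.04 apart (limma adjusted p = 0.979). With the slide as a block these differences were −0.10 and −0.19. The 2 Lrrc4c probes correlated at r = 0.32 over the 16 arrays. Both were 0.09 to 0.10 lower with age in vehicle mice (limma adjusted p = 1.00 each).

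**Figure D4:**
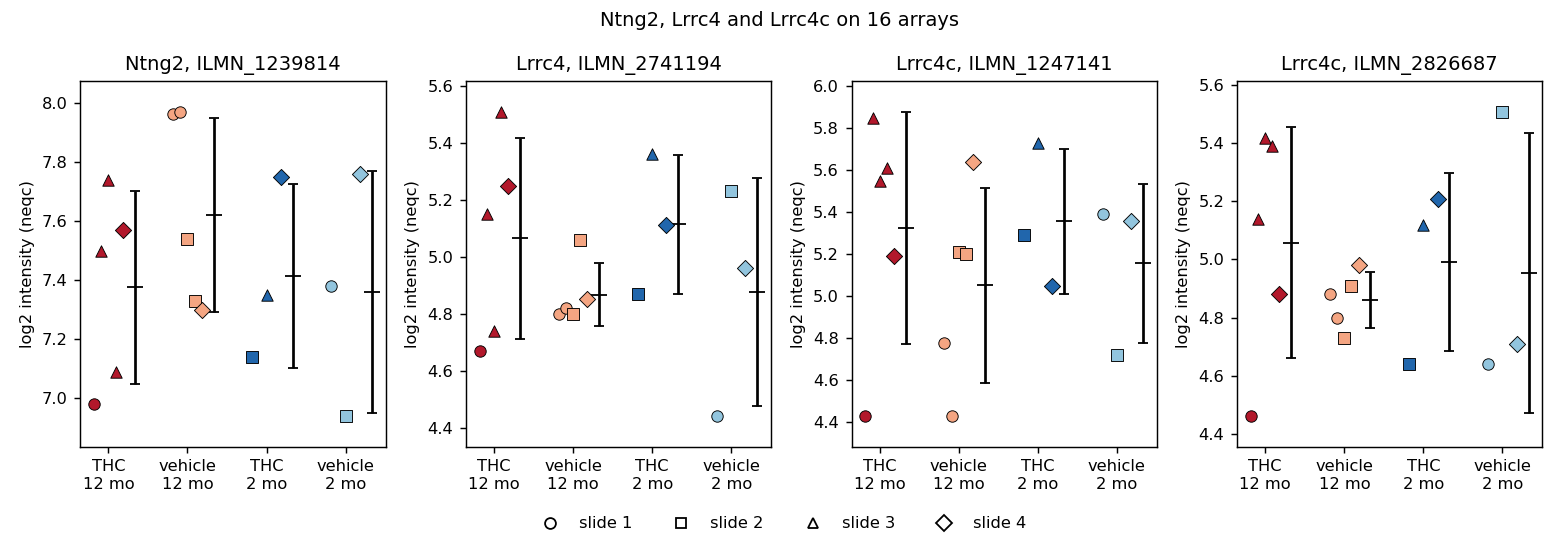
Log2 intensity of the tested probes of Ntng2, Lrrc4 and Lrrc4c in the 4 groups, with 1 point per array, shapes for slides and mean ± SD beside the points. THC and vehicle arrays overlap at both ages on all 4 probes.

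Over all arrays the THC differences on the probes of Lrrc4 and Lrrc4c were above 0 at both ages. On that of Ntng2 they were −0.25 at 12 months and 0.05 at 2 months. Within slides 1 and 4 the 12-month difference was −0.14 and 0.39 on Lrrc4, −0.17 and −0.45 on Lrrc4c ILMN_1247141, and −0.38 and −0.09 on ILMN_2826687. Within slides 2 and 4 the 2-month difference was −0.36 and 0.14, 0.57 and −0.31, and −0.87 and 0.50 in the same order. The signs on these Lrrc4 and Lrrc4c probes were thus not settled. The response at 12 months minus that at 2 months ran from −0.30 for Ntng2 to 0.16 for Lrrc4c ILMN_2826687, with 95% intervals reaching from −0.99 to 0.97 and limma adjusted p from 0.991 to 0.999. Each interval held 0 and was wide, so the data do not show that the partners were unaffected. In each of the 4 comparisons above (THC at 12 months, THC at 2 months, their difference and age in vehicle mice) limma called 0 of these 4 probes, and 0 had an unadjusted p under 0.05. Among all 22625 probes limma called 0, which is 0%, in each of the 4, with 1080, 1384, 1179 and 1032 at an unadjusted p under 0.05. The THC and vehicle groups overlapped on all 4 probes at both ages, as did old and young vehicle mice, while 0.628%, 11.6% and 2.66% of all probes were free of overlap in either direction for THC at 12 months, THC at 2 months and age. Between old and young THC mice, and between old THC and young vehicle mice, limma also called 0 of the 4 and 0 had an unadjusted p under 0.05. Of all probes, 0% and 0.00442% were called, and 7.33% and 4.48% had an unadjusted p under 0.05.

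**Figure D5:**
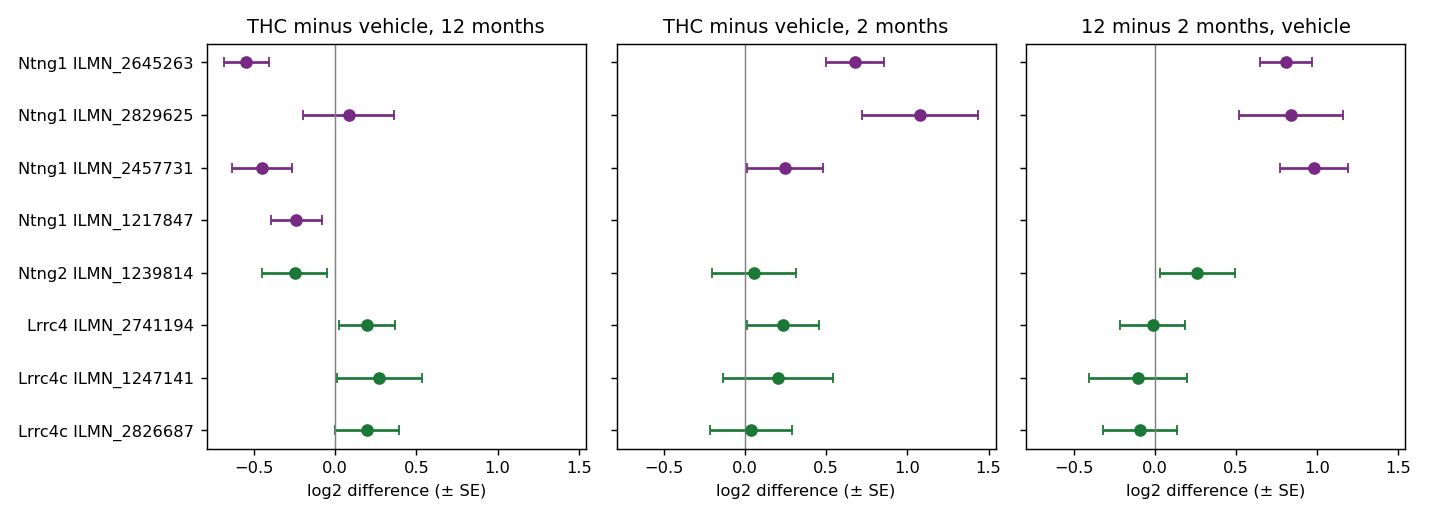
Log2 differences (points) with their standard errors (bars) for the 8 tested probes in 3 comparisons, Ntng1 in purple and the other genes in green. The Ntng1 probes lie at −0.55 to 0.08 in the 12-month panel, 0.25 to 1.08 in the 2-month panel and 0.81 to 0.98 in the panel for age, ILMN_1217847 being left out of the last 2 because no young vehicle array detected it, and the other probes lie between −0.25 and 0.27 in all 3.

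The wider circle of genes was taken from 3 lists. The first held reported partners of netrin-Gs and NGLs, among them the LAR family phosphatases and the PSD-95 family scaffolds, and 7 of its 9 genes were tested. None passed in any of the 3 comparisons named next. For THC at 12 months 2 were higher and 5 lower, with a median of −0.05, where the median of all probes was −0.00476 in the same comparison. The genes with the smallest p were Dlg4 at 0.12, Dlg2 at 0.05, Ptprd at −0.37 with its other probe at 0.07, and Ptprf at −0.23. Dlg2 was at −0.13 with the slide as a block.

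At 2 months 1 gene of this list was higher and 6 lower after THC, with a median of −0.15 against −0.0026 for all probes. Dlg4, which encodes PSD-95, averaged 6.33 in THC_Young and 6.97 in control_Young arrays, a difference of −0.65 ± 0.22, and the related Dlg3 was at −0.42 ± 0.14 (limma adjusted p = 0.781 for both). Whrn, a scaffold gene also known from the inner ear, was at 0.57. For age in vehicle mice 3 were higher and 4 lower (median −0.04). Whrn was at 0.58, Ptprd at 0.53 with its other probe at 0.18, Dlg3 at −0.22 and Dlg4 at −0.34. The unadjusted p was under 0.05 for 3 of the 7 genes in THC at 2 months and for 0 in the other 2 comparisons. Of all probes, 6.12% did so after THC in young mice, 4.77% after THC in old mice and 4.56% with age in vehicle mice.

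The second list held classical netrins and their receptors, and 8 of 11 genes were tested, none of which passed. THC at 12 months had 5 higher and 3 lower with a median of 0.02. The receptor gene Dcc was at 0.26, Unc5b at 0.31, Ntn5 at −0.41 and Neo1 at −0.12, with its 3 other probes between −0.07 and 0.20. THC at 2 months had 3 higher and 5 lower with a median of −0.00921. The repulsive netrin receptor gene Unc5a averaged 6.25 after THC and 6.97 after vehicle, a difference of −0.72 ± 0.24 (limma adjusted p = 0.781), with Dcc at 0.24, Unc5b at 0.11 and Ntn3 at −0.13, with its other probe at 0.05. With the slide as a block Unc5b was at −0.012 and Ntn3 at 0.056. Age in vehicle mice had 3 higher and 5 lower with a median of −0.02. Ntn5 averaged 9.76 at 12 months and 8.68 at 2 months, 1.07 ± 0.37 apart (limma adjusted p = 1.00). Neo1 was at 0.10 with its 3 other probes between 0.26 and 0.33, Unc5a at −0.25, and Ntn3 at −0.08 with its other probe at 0.22. The unadjusted p was under 0.05 for 0, 1 and 1 of the 8 genes in these 3 comparisons, against 4.77%, 6.12% and 4.56% of all probes.

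The third list held other leucine-rich repeat adhesion genes of the synapse, and 22 of 25 were tested, none of which passed. After THC at 12 months 10 were higher and 12 lower (median −0.02). Lingo2, a relative of the Nogo co-receptor gene Lingo1, was at −0.38 ± 0.16 with its other 2 probes at −0.41 and −0.23. Amigo2 was at 0.38 with its other probe at 0.60, Slitrk2 at 0.38 and Lrfn1 at −0.36. Slitrk2 was detected on 4 of 5 THC and 1 of 5 vehicle arrays, and Lrfn1 on 1 of 5 THC and 4 of 5 vehicle arrays. After THC at 2 months 6 were higher and 16 lower (median −0.08), and Lingo2 was at 0.40 ± 0.20 with its other 2 probes at 0.29 and 0.33 (limma adjusted p = 0.781).

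Lingo2 thus had positive differences at 2 months and negative ones at 12 months on all 3 of its probes. These were read for the same gene on the same arrays and are not independent evidence. The gene was named for its p in these same comparisons, so the adjusted p given next is no independent test. The response at 12 months minus that at 2 months was −0.78 ± 0.26 on the Lingo2 probe named here (limma adjusted p = 0.949), and −0.74 and −0.52 on its other 2 probes. The remaining genes named for THC at 2 months were Lrrtm3 at 0.24 (−0.062 with the slide as a block), Lrrtm2 at −0.29 and Lrfn4 at −0.24. With age in vehicle mice 14 were higher and 8 lower (median 0.08). Flrt1 was at 0.47, Elfn1 at 0.39, Amigo2 at −0.55 and Slitrk5 at −0.18. The other probes of Flrt1, Amigo2 and Slitrk5 were at 0.66, −0.47 and −0.39. The unadjusted p was under 0.05 for 2 of the 22 genes for THC at 12 months, against 4.77% of all probes. It was under 0.05 for 0 in the other 2 comparisons, against 6.12% of all probes for THC at 2 months and 4.56% for age in vehicle mice.

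The genes whose values ran most like those of Ntng1 ILMN_2645263 over the 16 arrays were Hs3st3b1, Agap1, Cxxc4, Slc25a18 and Prune2, at Pearson r = 0.799, 0.796, 0.789, 0.770 and 0.769 among 11645 named genes. These correlations are a description, since the arrays share slides, groups and normalization and the 5 genes are the top of a long list. Cxxc4, an inhibitor of Wnt signalling, averaged 8.32 ± 0.10 in THC_Old and 8.81 ± 0.26 in control_Old arrays (SD, n = 5 each), and 8.85 ± 0.07 in THC_Young and 8.30 ± 0.20 in control_Young arrays (SD, n = 3 each). Hs3st3b1, an enzyme that sulfates heparan sulfate chains, averaged 5.13 ± 0.19 in THC_Old and 6.05 ± 0.61 in control_Old arrays, and 5.61 ± 0.82 in THC_Young and 4.77 ± 0.31 in control_Young arrays. With slide means removed Agap1, which encodes a regulator of Arf GTPases, ranked first at r = 0.867.

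For Ntng2 the closest genes were Ctnnd2, which encodes the neuronal delta-catenin, Kat7, a histone acetyltransferase, and Gapvd1, at r = 0.805, 0.793 and 0.777. For Lrrc4 they were Crhr2, Dyrk2 and Nop14, at 0.853, 0.839 and 0.809, and for Lrrc4c ILMN_1247141 they were Plcb1, Dstyk and Rpap1, at 0.869, 0.862 and 0.853. Crhr2 was detected on 6 arrays and Plcb1 on 4, so their likeness lies partly between values at background. Ntng1 itself correlated with Ntng2 at r = 0.41, with Lrrc4 at −0.31 and with Lrrc4c at −0.05 over the same arrays, and no member was among the closest genes of another.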

How the data were processed

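Total hippocampal RNA was labelled with biotin as cRNA and hybridized to 16 Illumina bead arrays, per the labels. Per the file headers, one deposited table gives a log2 intensity and a detection p-value for each probe on each array, with no normalization between arrays. The series matrix gives the authors' normalized log2 values, which were within 0.00713 of a quantile normalization of the first table. Partek is named in the submitters' processing notes, and whether background was subtracted is not given in the sources used here. Of the detection p-values, 26 in 1 array were text. They counted as missing for the filter, and the background fit used interpolated values.

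Gene symbols came from the platform annotation. A RefSeq gene table (GRCm38.p6) matched 34807 of its 34903 entries by Entrez ID, and 0 symbols differed. No coordinates were used, since the files name no build.

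Groups came from the labels, and the slides from the array names in them. Background correction and quantile normalization were done with neqc (offset 16, limma 3.58.1, R 4.3.3). Probes detected (p under 0.05) on 3 or more arrays were kept, 22625 in all. The limma fit gave each of the 4 groups its own mean and all 16 arrays a common variance per probe, and passing meant a two-sided Benjamini-Hochberg adjusted p under 0.05 over all kept probes. The fit was tested on simulated data. Correlations with the marker lists were computed in Python 3.11.15, and the other correlations in R.

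The members, gene lists and comparisons were chosen with earlier results of these data known. Named genes were every member probe, the 2 genes of each list with the smallest p in each direction (1 probe per gene, highest mean), and the genes most like each member, 5 for Ntng1 and 3 for the others. The alternatives tried were other normalizations and filters, the slide as a block, values within slides, leaving out slide 1 or single arrays, other variance models, fewer groups in the fit, a looser threshold and the thalamus mean as a covariate.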

Additional observations from a re-analysis of the deposited data

Results flagged for a closer look

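On Ntng1 probe ILMN_2645263 all 5 THC arrays at 12 months lay below all 5 vehicle arrays of that age, and all 3 THC arrays at 2 months lay above all 3 vehicle arrays, so that the responses differed by −1.23. This difference was not tested, because the gene had been picked for it.

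On Lrrc4 probe ILMN_2741194, control_Old replicate 4 had 5.06 and lay apart from the other 4 control_Old arrays at 4.80 to 4.85. It was the 1 array found in 16 checks of groups of 5 arrays, in a check that chance alone passes for about 5% of groups.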

How the results depend on the processing

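No paired analysis was possible because the labels give no replicate numbers, and the numbers used here only name the arrays. Over all probes, limma called 0 for THC at 12 months but 31 with the slide as a fixed block. For age in THC mice it called 0, but 1 with quantile normalization only, the series matrix values, no filter or array weights, and 2 with the slide as a random block. For age in vehicle mice it called 0, but 3 with quantile normalization only or the series matrix values, 2 with no filter, with the stricter one (8 or more arrays with a detection p under 0.01), with either slide block or at an adjusted p under 0.1, and 1 with trended robust variances. Leaving out single arrays gave 0 to 1 there, with the 1 without control_Old replicate 3. For old THC against young vehicle it called 1 probe, but 2 with the fixed block, and 0 without slide 1, with trended robust variances, with the thalamus covariate, with the compared arrays alone and without any single array (0 to 0). Of 1363 values of the other members and the named list genes under alternatives with a test, 0 were called and 66 had the other sign. Values within slides have no test and are not among them, and 31 of 114 had another sign than over all arrays. Many of the 1363 values could not change sign. Leaving out an array of a group not compared, the other filters and the trended robust variances all leave a difference unmoved. The 66 are therefore no measure of how steady the signs were. The values listed next are from the 66 with a test. For THC at 12 months, Ntng2 was at 0.082 without slide 1 and Lrrc4c ILMN_1247141 at −0.26 with the fixed and −0.013 with the random block. Lrrc4c ILMN_2826687 was at −0.10 with the fixed block, and Dlg2 at −0.13 with the fixed block, −0.049 with the random block and −0.00677 with the thalamus covariate. For THC at 2 months, Lrrc4c ILMN_1247141 was at −0.16 with the fixed and −0.00213 with the random block, and ILMN_2826687 at −0.19 with the fixed block, −0.091 with the random block, −0.12 without slide 1 and −0.069 with array weights. Unc5b was at −0.012 with the fixed block and −0.098 without slide 1, Ntn3 at 0.056 and Lrrtm3 at −0.062 with the fixed block, and Lrfn4 at 0.028 with the thalamus covariate. For the difference of the THC responses, without slide 1 Ntng2 was at 0.018, Lrrc4 at 0.24 and Lrrc4c ILMN_1247141 at −0.12. Lrrc4 was at 0.16 with array weights, Lrrc4c ILMN_1247141 at −0.10 with the fixed block, −0.011 with the random block and −0.50 with the thalamus covariate, and ILMN_2826687 at −0.28 with that covariate. For age in vehicle mice, Lrrc4 was at 0.00561 with quantile normalization only and with the series matrix values, 0.013 with the fixed block, 0.00285 with the random block and 0.20 with the thalamus covariate. Lrrc4c ILMN_1247141 was at 0.31 without slide 1 and 0.21 with that covariate, and ILMN_2826687 at 0.15 with it. Without single arrays the sign also turned for THC at 2 months in Ntng2 (−0.16 to 0.25), Lrrc4c ILMN_1247141 (−0.013 to 0.36) and ILMN_2826687 (−0.12 to 0.32) and Unc5b (−0.098 to 0.35), for THC at 12 months in Dlg2 (−0.020 to 0.12), for the difference in Lrrc4 (−0.21 to 0.18), Lrrc4c ILMN_1247141 (−0.087 to 0.29) and ILMN_2826687 (−0.12 to 0.32), and for age in Lrrc4 (−0.23 to 0.16), Lrrc4c ILMN_1247141 (−0.32 to 0.052) and ILMN_2826687 (−0.25 to 0.19) and Ntn3 (−0.18 to 0.00709). The cause of these shifts was not tested. Ntng1 ILMN_2645263 kept its sign in all alternatives run, within slides included, at −0.74 to −0.38 for THC at 12 months, 0.50 to 1.15 for THC at 2 months and 0.61 to 1.12 for age in vehicle mice. It was picked on these same arrays, so this is a description and no support. Several alternatives, such as the other filters and the trended robust variances, could not move its differences. Lrrc4 and Lrrc4c lay near background, where signal limits what can be seen.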

Other observations

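Of all 22625 tested probes, 5 were without overlap higher after THC at 2 months and without overlap lower after THC at 12 months, which is 0.0221%, and 1 probe showed the reverse. The 5, named after their values were seen, were Ntng1 ILMN_2645263, a probe with no symbol at 0.50 and −0.65, the receptor-like kinase gene Ptk7 at 0.33 and −0.51, Lacc1 at 0.27 and −0.36, and Fbrs at 0.12 and −0.30 (log2 differences at 2 and at 12 months). The other 3 tested Ntng1 probes were not among them.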
